A study of Mus musculus with 2 samples.

Results

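The genes described are those of oxidative phosphorylation, taken as the probe sets annotated to exactly 1 gene symbol of the Nduf, Uqcr, Cox4i, Cox5, Cox6, Cox7, Cox8 or Atp5 series, or to Sdha, Sdhb, Sdhc, Sdhd, Cycs or Cyc1. This gave 184 of 45037 probe sets and 92 of 18193 genes. RNA was measured on 2 Affymetrix arrays, each with biotin-labelled cRNA from bone marrow cells of wild-type C57BL6J mice that were sorted as Lin- c-kitHi Sca-1+ Flt3- (LSK Flt3-), a fraction rich in haematopoietic stem cells. The cells of 1 array had been transduced with GFP, the control, and those of the other array with Satb1, which encodes a chromatin organiser that binds AT-rich DNA. Both groups shared strain, genotype and cell fraction. The vector, the age of the mice and the number of animals or cultures behind each array are not stated in these sources. With 1 array per group there was no replicate spread, so every difference below is a description with no standard error and no p-value.

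Oxidative phosphorylation passes electrons from NADH and succinate through the protein complexes of the inner mitochondrial membrane to oxygen, and uses the proton gradient so formed to make ATP. Complex I oxidises NADH, complex II oxidises succinate, complex III passes electrons from quinol to cytochrome c, complex IV reduces oxygen, and complex V is the ATP synthase. Most of the subunits are encoded in the nucleus. Haematopoietic stem cells are known for a low reliance on this pathway at rest and for a greater use of it when they divide and differentiate.

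The sequences before the start sites of the members were examined for letters that known regulators of respiratory genes read. Promoter windows of RefSeq (GRCm38.p6), from 250 bases before to 50 bases after the start, were given for 75 of the 92 genes, as 80 windows. The core of the NRF1 site (10 bases, which read the same on both strands) was in 6 of these 80 windows (7.50%). It was in 0.971% of all 32851 windows and in 2.58% of the 2675 windows of genes with a mean intensity over 2000 on these arrays. The upstream 250 bases are shown for 3 members that hold this core before the start site and for Atp5md, the member furthest apart between the arrays. Capitals mark the NRF1 core (the 10 capitals in the first 3 lines), GGGCGG (the SP1 core), CCAAT or TATAAA, or the same letters on the other strand.
Atp5g2, chr15:102671048-102671297, minus strand: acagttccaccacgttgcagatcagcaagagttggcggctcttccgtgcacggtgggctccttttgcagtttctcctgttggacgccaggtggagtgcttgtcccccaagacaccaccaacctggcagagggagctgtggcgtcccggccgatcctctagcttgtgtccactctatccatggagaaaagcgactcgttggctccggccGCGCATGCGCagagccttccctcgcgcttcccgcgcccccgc
Atp5k, chr5:108434400-108434649, minus strand: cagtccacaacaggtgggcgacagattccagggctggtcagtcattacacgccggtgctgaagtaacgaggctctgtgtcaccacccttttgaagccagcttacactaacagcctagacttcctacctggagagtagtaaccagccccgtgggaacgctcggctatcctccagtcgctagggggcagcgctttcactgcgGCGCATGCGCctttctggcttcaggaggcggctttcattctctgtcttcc
Cox6a1, chr5:115348959-115349208, minus strand: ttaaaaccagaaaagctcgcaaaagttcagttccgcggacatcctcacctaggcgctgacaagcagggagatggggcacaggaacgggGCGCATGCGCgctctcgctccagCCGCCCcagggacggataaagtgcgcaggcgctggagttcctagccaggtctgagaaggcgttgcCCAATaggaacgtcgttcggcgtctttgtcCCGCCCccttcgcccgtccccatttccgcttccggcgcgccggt
Atp5md, chr19:47090648-47090897, minus strand: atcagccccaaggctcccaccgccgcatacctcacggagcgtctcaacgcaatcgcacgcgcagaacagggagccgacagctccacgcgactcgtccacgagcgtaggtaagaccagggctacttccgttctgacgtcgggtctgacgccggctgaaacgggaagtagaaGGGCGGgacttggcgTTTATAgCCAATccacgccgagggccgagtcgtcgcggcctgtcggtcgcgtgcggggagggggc

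These letters are a description of the windows, not of bound sites. The YY1 core AAGATGGC, searched on both strands, was in 10 of the 80 member windows (12.5%), in 2.75% of all windows and in 5.79% of the windows of genes over 2000. GGGCGG was in 46.3% of the member windows and in 66.5% of those of genes over 2000, CCAAT in 42.5% against 37.9%, TATAAA in 11.3% against 7.10%, and the ETS core CCGGAAGT in 6.25% against 9.76%. The 6 genes with the NRF1 core were Atp5g2, Atp5k, Cox6a1, Ndufaf4, Ndufaf5 and Uqcrc1. Their log2 differences (array labelled Satb1 minus array labelled GFP) ran from -0.02 to 0.15 with a median of 0.02. Of the 75 genes with a window, those with intensities above 61.7 on both arrays ran from -0.34 to 0.50, with a median of 0.03.

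The labels and the cell fraction were checked on a few transcripts. No Satb1 probe set read higher on the array that bears its name: the brightest read 1116 (labelled GFP) and 909 (labelled Satb1). Whether these probe sets read the transduced copy is not known here, as the vector is not stated, so they cannot settle the labels. The arrays are therefore named by their labels throughout, and every direction rests on those labels. Kit (3293 (labelled GFP) and 3388 (labelled Satb1)) and Cd34 (8563 and 8197) were bright. Of 5 measured stem and progenitor markers Kit was higher on the array labelled Satb1 and 4 were lower (54.3% of all genes above the floor were). Hlf read 673 and 382, Mecom 940 and 815, and Procr, a dim one, 133 and 125. Cd3e, Cd4, Cd79a and Ms4a1 read at most 41.0 on either array. Cd8a, a further T cell marker, read 88.9 and 148. Flt3 RNA was present at 1390 and 1334, although the cells were sorted as lacking Flt3 on their surface. The other lymphoid-primed markers were lower on the array labelled Satb1, Dntt at 195 and 80.1 and Il7r at 187 and 156. Markers of granulocytes, monocytes, basophils and mast cells differed between the arrays. Of 8 granulocyte and monocyte markers 4 were at least 2-fold higher on the array labelled Satb1 (Camp, Ltf, S100a8 and S100a9). Elane was higher by less, at 799 and 1320. Mpo (18391 and 16452), Ctsg (12716 and 8777) and Csf1r (4099 and 3549) were lower. Of 4 basophil and mast cell markers 2 were at least 2-fold lower (Fcer1a and Mcpt8). Of all genes, 1.13% of those above the floor were 2-fold apart. Summed over the markers, the granulocyte and monocyte list read 40956 (labelled GFP) and 45884 (labelled Satb1). The basophil and mast cell list read 15167 and 9490, and 5 erythroid markers 751 and 994. Of the erythroid markers Gata1, Epor and Klf1 were higher, while Car1 and Hba-a1 lay below the floor on both arrays. All 3 megakaryocyte markers were higher, by 0.12 to 0.13 on the log2 scale, with sums of 23061 and 25285. The part of these cells in the small differences below was not tested, and in RNA of mixed cells fewer cells of a type and less RNA per cell cannot be told apart.

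The respiratory chain was expressed brightly on both arrays and was nearly level between them. Values are MAS5 intensities, and intensities under 61.7, the median over both arrays together, were raised to that floor before a difference was taken. Each gene is given by its brightest probe set. Of the 92 genes, 87 lay above the floor on both arrays, 1 (Cox4i2) on the array labelled GFP alone, and 4 on neither. The median intensity of the 87 genes was 6782 (labelled GFP) and 7062 (labelled Satb1), against 849 and 822 for the 10316 genes of the table above the floor on both. A mean intensity of at least 2000 was reached by 75 of the 92 members (81.5%) and by 14.1% of all genes.

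No member differed by 2-fold in either direction. Among all genes above the floor on at least 1 array 1.13% did. With the higher intensity at least 25% above the lower one, 1 member was higher on the array labelled Satb1 (Atp5md; 6.86% of all genes were) and 1 was lower (Cox6b2; 12.9% of all genes were). Of the 87 members, 62 (71.3%) were within 1.1-fold of equality, while 49.1% of all genes above the floor were. The SD of the log2 difference over the members was 0.14, and over all genes 0.29. Among genes of like brightness the gap was smaller: 0.13 for members and 0.19 for all genes from 2000 to 8000, and 0.11 and 0.14 over 8000.

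**Figure D1:**
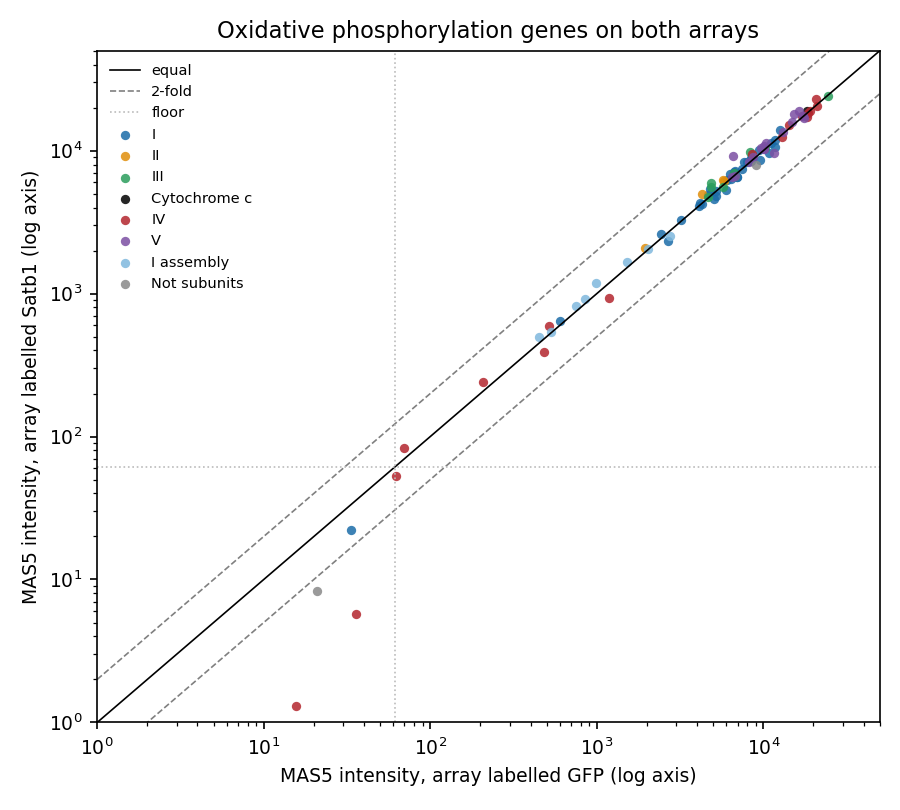
MAS5 intensity of each of the 92 genes on the array labelled GFP (x axis) and on the array labelled Satb1 (y axis), both on log axes, coloured by complex, with lines for equal values and 2-fold differences and dotted lines at the floor of 61.7. All genes above the floor lie between the 2-fold lines, and the 3 genes outside them, Cox7b2, Cox8b and Ndufa4l2, lie below the floor on both arrays.

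By direction, 59 of the 87 members (67.8%) were higher on the array labelled Satb1 and 28 (32.2%) lower, with a median log2 difference of 0.04. Over all genes above the floor 45.7% were higher and 54.3% lower, with a median of -0.02. Brightness ran with this contrast. Among genes of mean intensity over 8000, 59.3% of all genes and 69.2% of the 39 members were higher, with medians of 0.03 and 0.04. Among genes from 2000 to 8000, 58.7% of all genes and 61.1% of the 36 members were higher, with a median of 0.03 for both. The size of the split depended on the scaling, while over the 87 members higher ones outnumbered lower ones under each scaling tried: after quantile normalization 45 members were higher and 41 lower (51.7% higher), and the median of the members was 0.01. After subtraction of a lowess curve of the difference against intensity 48 were higher and 39 lower, and with all differences centred on the median of all genes 69 were higher and 18 lower. Among the bright members the direction did not hold under each scaling. After quantile normalization 17 were higher and 19 lower from 2000 to 8000, and 18 and 20 over 8000. With lowess 18 were higher and 18 lower from 2000 to 8000, and 20 and 19 over 8000. Set beside genes of like brightness, the medians of the bright members lay within 0.01 of the background medians on the values as deposited.

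**Figure D2:**
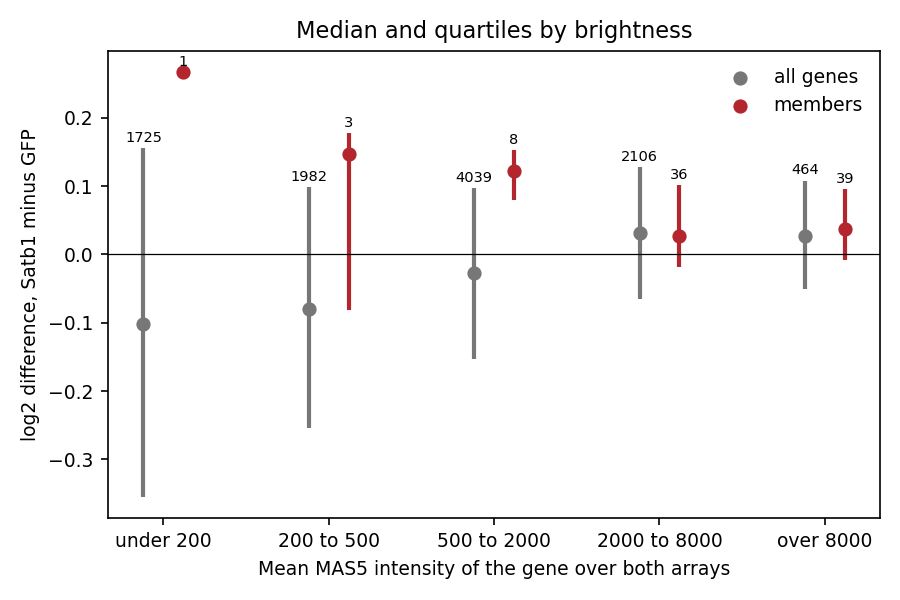
Median log2 difference, Satb1 minus GFP (points), with the quartiles (bars), for all genes and for the members in 5 classes of mean MAS5 intensity, with the number of genes above each bar. The median of all genes goes from -0.10 in the class under 200 to 0.03 over 8000, and the members over 8000 sit at 0.04, while the 8 members from 500 to 2000 have a median of 0.12 against -0.03.

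The complexes stood at different brightness. Over the genes above the floor on both arrays, the median intensity of the 14 complex IV subunit genes was 13638 (labelled GFP) and 13756 (labelled Satb1). These include 4 tissue-restricted isoforms. For the 10 widely expressed subunits alone it was 17668 and 17322. For the 17 complex V genes it was 10152 and 10373, for the 9 complex III genes 6680 and 6689, for the 33 complex I subunit genes 6678 and 6556, and for the 4 complex II genes 4971 and 5570. The 8 assembly factor genes of complex I, which the symbols take in although they are not subunits, were at 916 and 1055. Probe sets bind with different strength, so this order is one of signal and not of transcript number. On the log2 scale the highest and lowest complex medians lay 1.38 apart, while the values of 1 complex spanned more than that. Complex IV alone spanned 69.3, the isoform Cox7a1, to 20871 (labelled GFP). Its 10 widely expressed subunits spanned 519 to 20871.

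**Figure D3:**
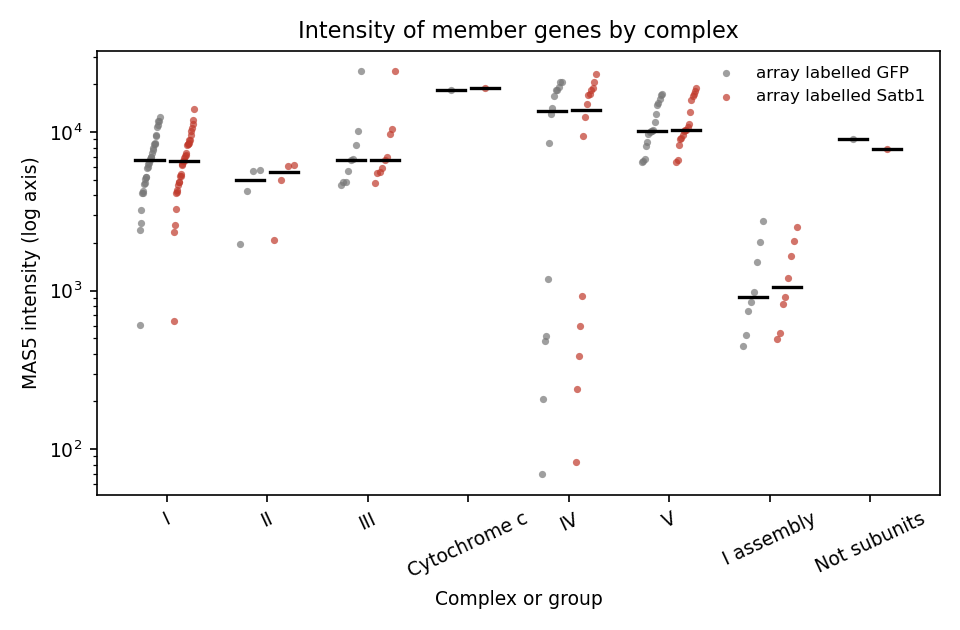
MAS5 intensity (log axis) of each member gene above the floor on both arrays, by complex or group, on the array labelled GFP (grey) and on the array labelled Satb1 (red), with black bars at the medians. In each group the points of both arrays cover nearly the same range; complexes IV and V have the highest medians of the groups with several genes, and the complex I assembly factors the lowest.

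The differences between the arrays were small in every complex. The median log2 difference was 0.03 for complex I, 0.11 for complex II, 0.04 for complex III, 0.02 for complex IV, 0.04 for complex V and 0.12 for the assembly factors. The medians of complexes I, IV and V changed sign under at least 1 other scaling, floor or probe set rule. The 5 complex medians lay within 0.09 of each other, over 4 to 33 genes each, and whether they differ was not tested. As a measure of probe error, within a gene the SD of log2 differences was 0.15 over 49 genes with several probe sets above the floor, and 0.09 among probe sets over 2000. This SD covers probe error on these arrays and leaves out the error between preparations.

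**Figure D4:**
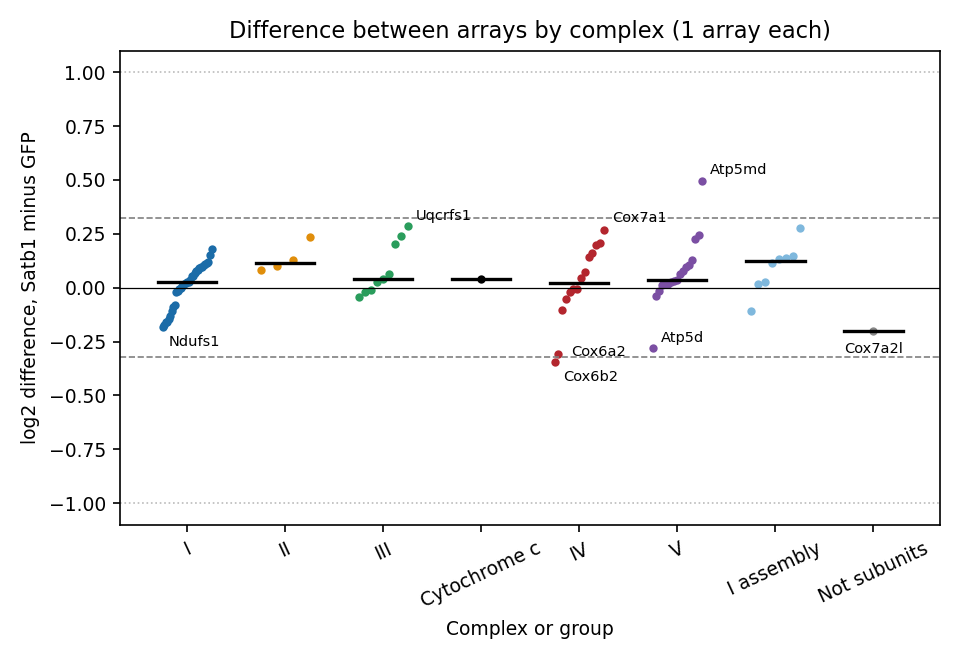
Log2 difference, Satb1 minus GFP, of each member gene above the floor on both arrays, by complex or group, with black bars at the medians, dashed lines where the higher intensity is 25% above the lower, and dotted lines at 2-fold. Atp5md (0.50) lies above the dashed lines, Cox6b2 (-0.34) just below them, and all other points between them.

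In complex I, 20 subunit genes were higher on the array labelled Satb1 and 13 lower, within -0.18 to 0.18. Genes of the subunits that carry flavin, iron-sulphur clusters or the quinone site were lower by their brightest probe sets in 5 of 6 cases. Ndufs1, the large iron-sulphur subunit that takes electrons in the NADH module, read 2661 (labelled GFP) and 2343 (labelled Satb1), the lowest difference of the complex (-0.18). Ndufs7, which holds the cluster next to quinone, read 5949 and 5281, and Ndufs8, its iron-sulphur neighbour, 10757 and 9618. Ndufv1, the subunit that binds FMN, read 5061 and 4618, and Ndufs3, a quinone module subunit, 4272 and 4218. Ndufv2, an iron-sulphur subunit of the NADH module, was the exception at 8388 and 8942.

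These lower values depended on the probe set. By probe sets named with a plain _at, which are designed to match a single transcript, Ndufs7 read 4494 (labelled GFP) and 4541 (labelled Satb1), Ndufs8 3091 and 3145, and Ndufv1 3715 and 3711. Ndufs1 had 1 probe set in all and no plain one. The 6 probe sets of Ndufs8 ran from -0.21 to 0.22.

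Among the 27 accessory subunit genes of complex I above the floor, 19 (70.4%) were higher and 8 lower. All of them but Ndufb1 had a mean intensity over 2000. The background shares were 58.7% higher from 2000 to 8000 and 59.3% over 8000. Whether accessory subunits differ from the redox subunits above was not tested. The highest accessory genes were Ndufa9, a quinone module subunit, at 4788 (labelled GFP) and 5421 (labelled Satb1), and Ndufa1, a small membrane subunit, at 12535 and 13905. Ndufa1 gave the brightest signal of complex I on both arrays, followed by Ndufa3, an accessory subunit, at 11772 and 11946. Ndufs4, an accessory subunit needed to complete the NADH module, was higher by all 4 of its probe sets, from 0.10 by the brightest (2414 and 2593) to 0.49 by a dim one (74.1 and 104). Ndufb7 (9545 and 8551) and Ndufb11 (11727 and 10601) were the lowest, and all 3 probe sets of Ndufb11 were lower. The second Ndufb7 probe set, a plain _at, was level at 4795 and 4836. The probe set of Ndufb4 alone lay below the floor on both arrays, at 33.3 and 22.1, whereas a probe set that Ndufb4 shares with Ndufb4b and Ndufb4c read 5571 and 5543.

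Of the 8 Ndufaf genes, which encode factors that assemble complex I, 7 were higher and 1 lower. Ndufaf2, a late assembly chaperone, had the largest difference, at 987 (labelled GFP) and 1196 (labelled Satb1) (0.28). Ndufaf8 was lower by its brighter probe set (2740 and 2538) and higher by its dimmer one (311 and 380). All genes from 500 to 2000, the class that holds 5 of the 8, had a median of -0.03. Of a further 30 measured genes that encode other assembly factors of the chain, 13 were higher and 16 lower and their median was -0.02. The largest differences there were those of Timmdc1 (623 and 424), Tmem126b (97.4 and 67.5) and Foxred1 (626 and 503), all lower. Tmem126b lay close to the floor of 61.7 on the array labelled Satb1.

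All 4 genes of complex II were higher on the array labelled Satb1, by 0.08 to 0.23. Their mean intensities lay from 2000 to 8000, a class in which 58.7% of all genes were higher. Sdha, the flavoprotein that oxidises succinate, read 5686 (labelled GFP) and 6210 (labelled Satb1), and Sdhb, the iron-sulphur subunit, 5803 and 6136. The membrane anchor genes Sdhc and Sdhd read 1956 and 2097, and 4257 and 5004. The direction was not shared by every probe set. The second Sdhd probe set read 1051 and 1023, and a dim Sdha probe set 136 and 98.4.

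In complex III, 6 genes were higher and 3 lower. The shares of all genes that were higher were 58.7% from 2000 to 8000 and 59.3% over 8000. Uqcrfs1, the Rieske iron-sulphur protein, had the highest difference after Atp5md among all members, at 4877 (labelled GFP) and 5941 (labelled Satb1) (0.28), by a single probe set. Uqcrc2, a core protein of the matrix side, was higher by both of its probe sets, by 0.11 and 0.24, the brighter at 8314 and 9803. Its partner Uqcrc1 was level at 6782 and 6689. Cyc1, the cytochrome c1 gene, read 5720 and 5542, and Uqcrb, the brightest member of all, 24339 and 24162. A second Uqcrb probe set gave 5947 and 6994. Cycs, the mobile cytochrome c that links complexes III and IV, read 18353 and 18883, and its 3 probe sets above the floor were all higher, by 0.04 to 0.23.

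In complex IV, 7 genes were higher and 7 lower. Of the 10 widely expressed subunits, 7 were within 1.1-fold of equality. Cox4i1 read 16961 (labelled GFP) and 17521 (labelled Satb1), Cox6a1 20871 and 20578, Cox6b1 19166 and 19085, and Cox7a2 18509 and 18426. A second Cox6a1 probe set was higher on the array labelled Satb1, at 11063 and 12848. Cox5a, a subunit close to the catalytic core, was the highest of the bright ones at 20737 and 23154, while a plain _at probe set of it gave 16746 and 15974. Cox8a read 8563 and 9453, and Cox7c 519 and 595, both further apart than 1.1-fold. Cox5b read 18374 and 17124, while the only higher one of its 5 probe sets above the floor read 8371 and 9073. Ndufa4, named after complex I but placed in complex IV, read 12990 and 12506.

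Of the 7 tissue-restricted isoforms of complex IV, 4 were above the floor on both arrays, 1 on the array labelled GFP alone and 2 on neither. Cox4i2, the lung isoform that replaces Cox4i1, read 62.6 (labelled GFP) and 52.8 (labelled Satb1), just above and just below the floor. Cox7a1, the heart and muscle isoform, read 69.3 and 83.4. Cox7b2 (15.6 and 1.3) and Cox8b (35.8 and 5.7) were below the floor on both, so no fold is given. The testis isoforms Cox8c, at 208 and 241, and Cox6b2, at 1180 and 930, and the muscle isoform Cox6a2, at 480 and 388, were above it. Cox6b2 had the lowest difference of all members, -0.34, by 1 probe set. The second Cox6a2 probe set, at 118 and 135, went against the first.

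In complex V, 14 genes were higher and 3 lower. Among all genes, 58.7% of those from 2000 to 8000 and 59.3% of those over 8000 were higher. The median log2 difference of complex V, 0.04, was -0.0010 after quantile normalization. Atp5md, a small membrane subunit that helps ATP synthase dimers form, was the member with the largest difference: it read 6541 (labelled GFP) and 9234 (labelled Satb1), 1.41-fold higher (0.50 on the log2 scale, and 0.44 after quantile normalization). It has 1 probe set, so no second reading could be set beside it. Among all 2106 genes from 2000 to 8000, 64 were higher by at least 25%. Atp5mpl, another small membrane subunit, was level at 6756 and 6689.

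The catalytic head genes Atp5a1 and Atp5b read 10353 and 11300, and 14869 and 15977. All 3 probe sets of Atp5a1 were higher. Atp5c1, the gamma subunit of the rotating shaft, read 15289 and 18108 (0.24), and Atp5pb, the peripheral stalk subunit b, 16273 and 19058 (0.23), higher by both of its probe sets. A dim Atp5c1 probe set went the other way, at 128 and 113. The genes of rotor subunit c, which encode the same mature protein, were level: Atp5g1 read 6441 and 6516, Atp5g2 10109 and 10220, and Atp5g3 17216 and 17374. Atp5d, the delta subunit of the central stalk, was the lowest of the complex at 11651 and 9590 (-0.28), and its second probe set was also lower, at 6449 and 5974. Atp5e, its partner in the stalk, read 8174 and 8312. Atp5h, the brightest gene of the complex on the array labelled GFP, read 17499 and 17029.

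Cox7a2l, which is not a subunit but joins complexes III and IV into supercomplexes, was lower by all 3 of its probe sets, by 0.10 to 0.20 on the log2 scale, the brightest at 9046 (labelled GFP) and 7879 (labelled Satb1). Ndufa4l2, a relative of Ndufa4 known from hypoxic cells, was below the floor on both arrays at 20.8 and 8.3.

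How far the probe sets of a gene went the same way was counted for the 49 members with at least 2 probe sets above the floor. In 19 of them every probe set was higher on the array labelled Satb1, in 5 every probe set was lower (Atp5d, Cox6b1, Cox7a2l, Ndufb11 and Ndufb2), and in 25 they were mixed. Among all 4840 such genes every probe set was higher in 23.2% and lower in 24.6%. These shares were not matched for brightness: a mean intensity of at least 2000 was reached by 81.5% of members and 14.1% of all genes. Shares also varied by class of probe set, a difference that was not tested. Of 49 plain _at probe sets of members over 2000, 75.5% were higher (63.0% over all genes). Of 40 that match several transcripts of a gene (_a_at) 20 were (59.0% over all genes). Of 17 that match transcripts of several genes (_s_at) 82.4% were (61.0%), and of 21 that can match unrelated transcripts (_x_at) 9 were (56.0%).

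**Figure D5:**
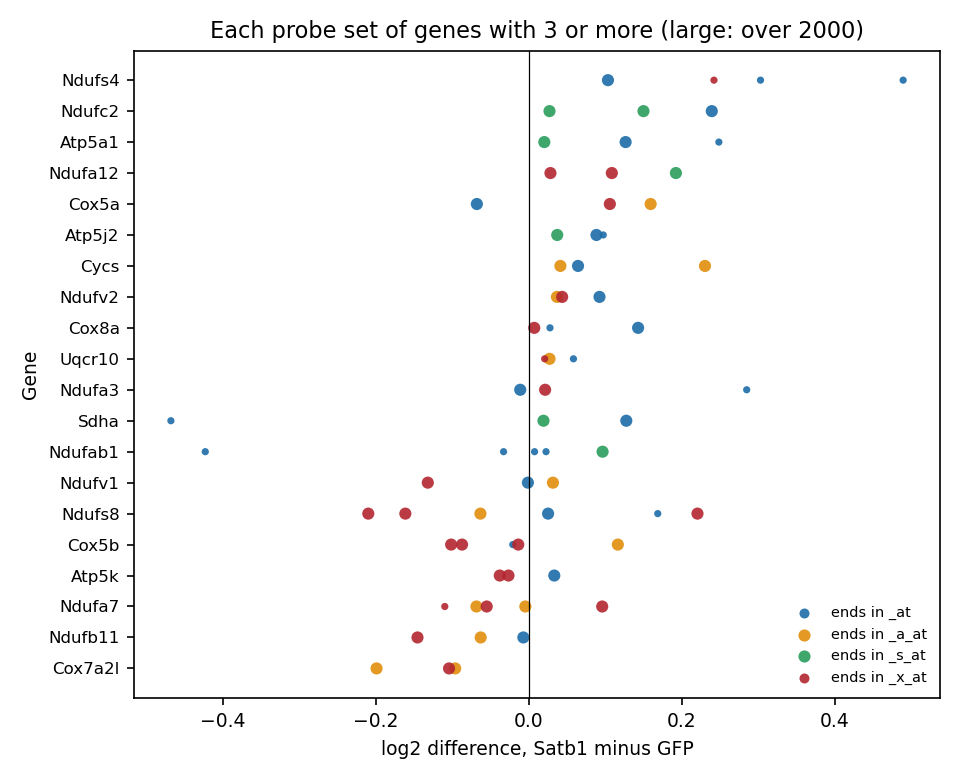
Log2 difference, Satb1 minus GFP, of each probe set above the floor for the 20 members with at least 3 of them, ordered by their median, coloured by probe set class, with large points for mean intensities of at least 2000. All points of Ndufs4, Ndufc2 and Atp5a1 lie right of 0 and all points of Cox7a2l and Ndufb11 left of it, while Ndufs8 and Ndufa7 spread to both sides.

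Other genes of mitochondrial energy metabolism were read from lists. Of 15 measured genes of the citrate cycle and pyruvate dehydrogenase, 9 were higher and 6 lower with a median of 0.01 and none apart by 25% or more. Dld, a shared subunit of the dehydrogenases, read 1708 (labelled GFP) and 1987 (labelled Satb1), and Suclg2, a succinyl-CoA ligase subunit, 4169 and 3586. Of 7 carriers and porins, 6 were higher with a median of 0.07, among them the pyruvate carrier gene Mpc1 at 3847 and 4421. Slc25a3 was lower, at 16584 and 15748. For comparison, 58.7% of all genes from 2000 to 8000 and 59.3% of those over 8000 were higher, with medians of 0.03.

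Of 15 genes that regulate mitochondrial genes, 14 were above the floor, 5 of them higher and 9 lower with a median of -0.03. Ppargc1b, a coactivator of respiratory genes, read 587 and 430, and Esrra, the nuclear receptor that it coactivates, 718 and 573, both at least 25% higher on the array labelled GFP. These 2 of 14 are close to the 12.9% of all genes that were lower by this rule. Myc read 7526 and 6079, Nrf1, whose core site is shown above, 404 and 344, and Tfam, which packages and transcribes mitochondrial DNA, 3028 and 3305. Ppargc1a was below the floor at 16.2 and 11.6. The single gene of the mitochondrial genome with a probe set of its own here, ND5 of complex I, read 14664 (labelled GFP) and 11027 (labelled Satb1), or -0.41 on the log2 scale, lower than that of any nuclear member above the floor.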

How the data were processed

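The deposited values are intensities made by the authors with MAS5, per the submitters' processing notes, on a linear scale. No source used here states the version, scaling target or detection calls. With 2% of probe sets trimmed at each end, both arrays had a mean of 497. Arrays have no read depth, so their number limits the precision. Gene symbols came from the platform annotation, and updating them against the GRCm38.p6 gene table changed no member. Each gene was represented by its probe set of highest mean log2 intensity, and differences of log2 intensities were taken after raising values under 61.7 to that floor. No test was possible with 1 array per group, and p-values were not computed. Background shares are over genes above the floor, on both arrays for a direction and on at least 1 for a fold. The scripts (Python 3.11.15, pandas 2.3.3) were tested on simulated data. The members, the complexes and the lists were chosen with earlier results of these data known. Named are, per complex, redox and catalytic subunits, isoforms, the 2 brightest and the most different members, any member 1.5-fold apart, and members whose probe sets differ in sign, described as counts where many. Probe sets with several symbols were left out of the comparisons. Alternatives covered the floor, the scaling, the probe set rule and the member rule.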

Additional observations from a re-analysis of the deposited data

How the results depend on the processing

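For 13 summary quantities, 124 alternative values were computed. The median log2 difference of the members ran from 0.01 (quantile normalization) to 0.06 (centring on the median of all genes). That of complex I was -0.01 with quantile normalization and with lowess and -0.0036 with the mean over probe sets, that of complex IV -0.01 with either other percentile as floor and with no floor, and that of complex V -0.0010 with quantile normalization. The count of lower members, 28, was 18 with centring and 18 with plain _at probe sets. Members lower by the 25% rule, 1 as reported, numbered 4 with the floor at the 25th percentile, 5 with no floor, 0 with quantile normalization or lowess (where Cox6b2 moved from -0.34 to -0.32 and -0.31, across the limit), 4 with the mean over probe sets and 4 with plain _at probe sets. Members higher by it, 1 as reported, numbered 3 with quantile normalization and 2 with lowess, with the mean over probe sets or with plain _at probe sets; Atp5md was among them each time. Members 2-fold apart, 0 as reported, numbered 1 with the floor at the 25th percentile (Cox8b) and 3 with no floor (Cox7b2, Cox8b and Ndufa4l2), all below the floor on both arrays. The log2 distance between the highest and lowest complex level, 1.38, became 1.72 under a 75th percentile floor, 0.99 with no floor, 2.21 with the mean over probe sets and 1.73 with plain _at probe sets. The cause of these shifts was not tested beyond what each alternative changes. No paired analysis was possible because each group has 1 array, and no array could be left out.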

Other observations

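Probe sets that carry the symbols of a member and of another gene were outside the comparisons. The one shared by Ndufs6 and Ndufs6b read 5637 (labelled GFP) and 5525 (labelled Satb1), and the one shared by Ndufa11 and Ndufa11b 4076 and 4243. The probe set shared by Ndufs5 and Ndufs5-ps read 3619 and 4084, and that shared by Ndufab1 and Ndufab1-ps 5577 and 6071. A second probe set of Ndufb4, Ndufb4b and Ndufb4c read 4389 and 5008. The probe set shared by Ndufb2 and Adck2 was dim and lower, at 128 and 71.7. A dim probe set of Ndufb2 alone was also lower, at 111 and 60.2, while the bright Ndufb2 probe set read 5211 and 4826.

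Dim probe sets of bright members also stood apart from the bright ones in other genes. Ndufb8 read 257 and 193 by its dim probe set and 6678 and 7062 by its bright one. Ndufab1 read 217 and 162 by a dim probe set and 6737 and 7202 by the bright one. Cox7c, a widely expressed complex IV subunit, was represented by probe sets of at most 519 on the array labelled GFP, and both were higher on the array labelled Satb1, at 595 and 235 against 519 and 178.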
